A study of Homo sapiens with 12 samples.

Results

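The hypoxia response genes described here are SLC2A1, NDRG1, CA9, VEGFA, ADM, PDK1, BNIP3, EGLN3 and P4HA1. These 9 genes were chosen by symbol, and the Ensembl identifier of each was found once among the 58721 genes of the count table. Counts per gene were given for 2 human lines, the colorectal cancer line HT-29 and the mast cell line LAD2. Each line was sampled alone and after direct coculture with the other line, in 4 groups of 3 labelled samples. The batch label of all samples, those alone included, reads 12 hours and was taken as the incubation time. HT-29 was maintained in McCoy 5A medium with serum and LAD2 in SP34 medium with its supplements, and the kits for RNA also differed, with mini columns for HT-29 and micro columns for LAD2. Line, medium and kit therefore went together in every comparison of the lines. The labels name no treatment with low oxygen, and neither the medium nor the oxygen level of the coculture is given in the sources used here. Each group is a single established line, and how the cells of each were recovered from the coculture is not given in the sources used here either.

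Cells that lack oxygen stop hydroxylating the alpha subunits of the hypoxia-inducible factors (HIF), which then escape degradation through the VHL ubiquitin ligase, pair with ARNT and switch on target genes. The 9 genes are widely used as readouts of that switch and cover its main tasks. SLC2A1 brings glucose into the cell, PDK1 inhibits the pyruvate dehydrogenase complex, CA9 regulates pH at the cell surface and BNIP3 marks mitochondria for removal. VEGFA and ADM are secreted signals to blood vessels, P4HA1 prepares collagen for folding, EGLN3 is itself a HIF prolyl hydroxylase and NDRG1 is a stress-responsive cytoplasmic protein.

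The 3 columns labelled LAD2 coculture held the same count in each of the 58721 genes, whereas other pairs of columns of 1 group differed in 20926 to 22884 genes. They were counted as 1 library, which left 10 distinct libraries with totals between 17.2 M and 34.1 M counts (M, 1e6 counts). A count of 0 allowed 3 counts, or 0.0879 to 0.174 counts per 1e6 counts (CPM), and such floors cover counting error only. All 20 mast cell markers were at 1 CPM or more in LAD2 alone and 19 of 20 epithelial markers in HT-29 alone, while 6 fibroblast markers summed to at most 3.07 CPM in any library. Coculture libraries also held markers of the partner line. Mast cell markers summed to between 33.5 and 33.7 CPM in HT-29 alone, where 14 of 20 were at 0, and to between 282 and 308 CPM in HT-29 coculture. Epithelial markers summed to between 228 and 252 CPM in LAD2 alone, where 6 of 20 were at 0, and to 1142 CPM in LAD2 coculture. In the lines alone these sums were nearly all from single genes, GATA2 (mean 33.4 CPM) in HT-29 and KRT19 (mean 235 CPM) in LAD2. From 309 LAD2 genes the share of LAD2 RNA in HT-29 coculture was 1.11% ± 0.0737 (SD, n = 3), and from 326 HT-29 genes the share of HT-29 RNA in LAD2 coculture was 5.26%, with quartiles over genes of 4.43% and 6.11%. A mixture of both lines alone at these shares gives a level for each gene, and that level is set beside many of the coculture values.

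In LAD2 alone 7 of the 9 genes were lower and 2 were higher than in HT-29 alone, all of them past the test, in a comparison in which 92.4% of 15830 genes tested were called, 47.5% higher and 44.9% lower in LAD2. The members' share called is thus near that of all genes. The CPM ranges of the lines did not overlap in any of the 9 genes, as in 92.2% of all genes tested. The test throughout was edgeR's quasi-likelihood test with Benjamini-Hochberg adjustment over all genes tested, two-sided, with calls at an adjusted p under 0.05. No source says whether samples of 1 group were grown as independent cultures. The p-values therefore reflect the spread among the samples at hand, which may be technical.

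SLC2A1 (ENSG00000117394, hg38 chr1:42925375-42959176, minus strand), the glucose transporter GLUT1, stood at 561, 542 and 537 CPM in HT-29 alone and at 1.17, 0.963 and 1.37 CPM in LAD2 alone. The groups lay far apart, and the level in HT-29 was 468-fold higher by the fitted ratio. CA9 (ENSG00000107159, chr9:35673856-35681159, plus strand), a carbonic anhydrase at the cell surface, stood at 98.2, 92.3 and 92.0 CPM in HT-29 alone and had 0 counts in all 3 LAD2 libraries. Against 3 counts over the LAD2 group, CA9 was at least 1999-fold higher in HT-29.

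BNIP3 (ENSG00000176171, chr10:131966455-131982013, minus strand) went the other way. It stood at 23.1, 21.8 and 24.9 CPM in LAD2 alone and had 1 count over the 3 HT-29 libraries, a ratio of 1656 with an exact 95% interval from counting of 297 to 65455. NDRG1 (ENSG00000104419, chromosome 8) was the other gene that was higher in LAD2, with 71.0, 72.7 and 72.1 CPM against 40.7, 36.8 and 36.4 CPM in HT-29, a log2 difference of 0.91 ± 0.0486 (SE). Its groups did not overlap either. The 44 pseudogenes of BNIP3 in the table summed to at most 0.197 CPM in any group.

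EGLN3 (ENSG00000129521, chr14:33924231-34462774, minus strand) stood at 13.9, 12.8 and 12.5 CPM in HT-29 and at 0, 0.289 and 0.310 CPM in LAD2. It was thus near the floor in the mast cell line, at a log2 difference of -5.98 ± 0.224 (SE). The remaining 4 genes were expressed in both lines and lower in LAD2. VEGFA (ENSG00000112715, chr6:43770184-43786487, plus strand) differed by -0.94 on the log2 scale, PDK1 (ENSG00000152256, chr2:172555373-172608669, plus strand) by -1.69, ADM (ENSG00000148926, chr11:10304680-10307397, plus strand) by -1.90 and P4HA1 (ENSG00000122884, chr10:73007217-73096974, minus strand) by -2.26. SE of these differences lay between 0.0466 for VEGFA and 0.179 for ADM.

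**Figure D1:**
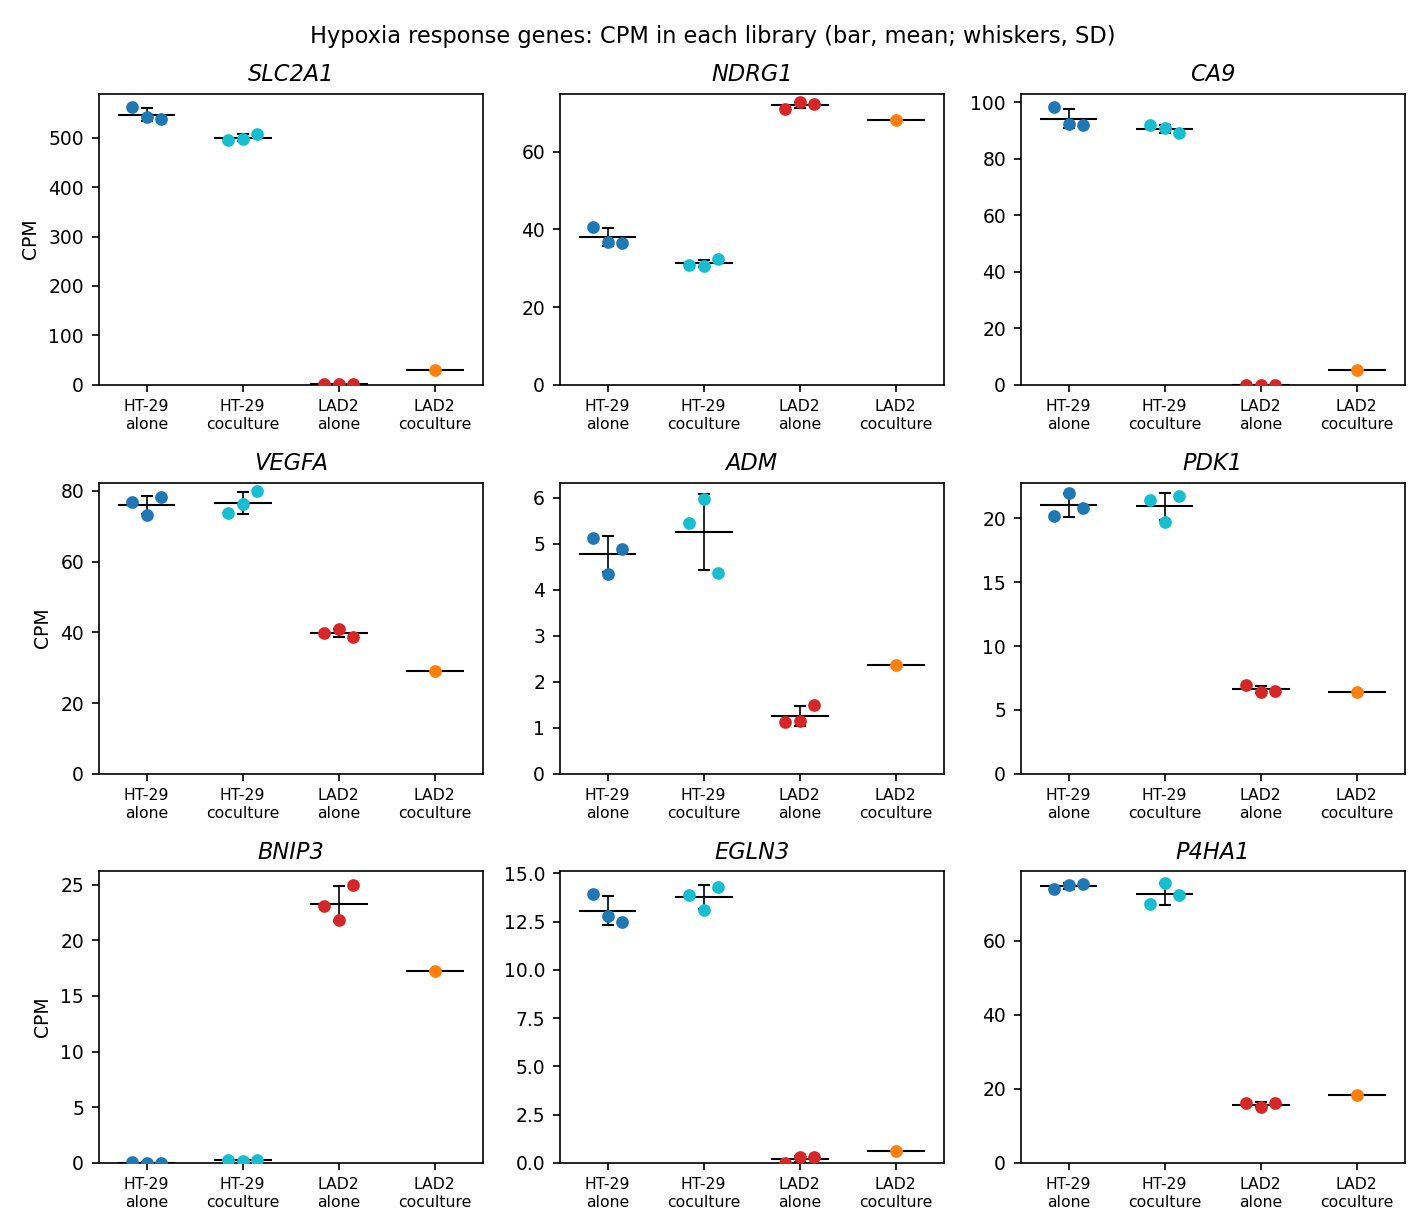
CPM (y axis, linear from 0, a scale of its own for each gene) of the 9 genes in the 10 distinct libraries, grouped by line and culture; points are libraries, horizontal bars means and whiskers SD (n = 3; LAD2 coculture is 1 library). SLC2A1 is at 547 CPM in HT-29 alone and at 1.17 CPM in LAD2 alone, whereas BNIP3 is near 0 in HT-29 and 23.3 CPM in LAD2 alone.

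Levels of different genes were compared per length, as CPM per kilobase of exon (RPKM). In HT-29 alone the order was SLC2A1 at 137 ± 3.21 RPKM (SD, n = 3), CA9 at 58.2, P4HA1 at 25.6, VEGFA at 20.2 and NDRG1 at 10.1, then EGLN3 at 2.68, ADM at 1.76, PDK1 at 1.47 and BNIP3 at 0.00596 RPKM. In LAD2 alone it was NDRG1 at 19.1 ± 0.228 RPKM (SD, n = 3), VEGFA at 10.6, BNIP3 at 8.14 and P4HA1 at 5.37, then PDK1 at 0.464, ADM at 0.46, SLC2A1 at 0.293 and EGLN3 at 0.0409 RPKM, with CA9 at 0. The glucose transporter led the order in HT-29 and came close to its end in LAD2. Neighbours in both orders lay further apart than their SDs, except PDK1 and ADM in LAD2 alone. The RPKM of PDK1 rests on an exon length of 14253 bases, the longest of the 9.

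A relative of each of 8 members was compared between the lines alone by RPKM. In 5 pairs (with SLC2A3, EGLN1, PDK3, NDRG3 and VEGFB) the relative was higher in the line in which the member was lower, and in 3 pairs (with BNIP3L, CA12 and P4HA2) it was higher in the same line as the member. SLC2A3, the glucose transporter GLUT3, stood at 0.00435 RPKM in HT-29 alone, where SLC2A1 was at 137 RPKM, and at 47.2 RPKM in LAD2 alone, where SLC2A1 was at 0.293 RPKM. The transporter pair had thus changed places between the lines. BNIP3L, a mitophagy receptor like BNIP3, was above BNIP3 in both lines, at 2.43 RPKM in HT-29 alone and 181 RPKM in LAD2 alone. EGLN1, the prolyl hydroxylase that sets HIF levels in most cells, was at 5.8 RPKM in HT-29 alone and 14.5 RPKM in LAD2 alone, against 2.68 and 0.0409 RPKM for EGLN3.

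PDK3, a kinase of the same pyruvate dehydrogenase complex as PDK1, was at 2.01 RPKM in HT-29 alone and 8.34 RPKM in LAD2 alone. CA12, a carbonic anhydrase of the cell surface like CA9, was at 36.8 RPKM in HT-29 alone and 0.00253 RPKM in LAD2 alone. P4HA2, the relative of P4HA1, was at 11.5 RPKM in HT-29 alone and 2.54 RPKM in LAD2 alone. VEGFB, a relative of VEGFA, was at 17.7 RPKM in HT-29 alone and 81.7 RPKM in LAD2 alone. The semaphorin and VEGF coreceptors split as well, with NRP1 at 5.02 RPKM and NRP2 at 0.0802 RPKM in HT-29 alone, against 0.0103 and 4.12 RPKM in LAD2 alone. These family pairs were described from levels and were not tested.

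**Figure D2:**
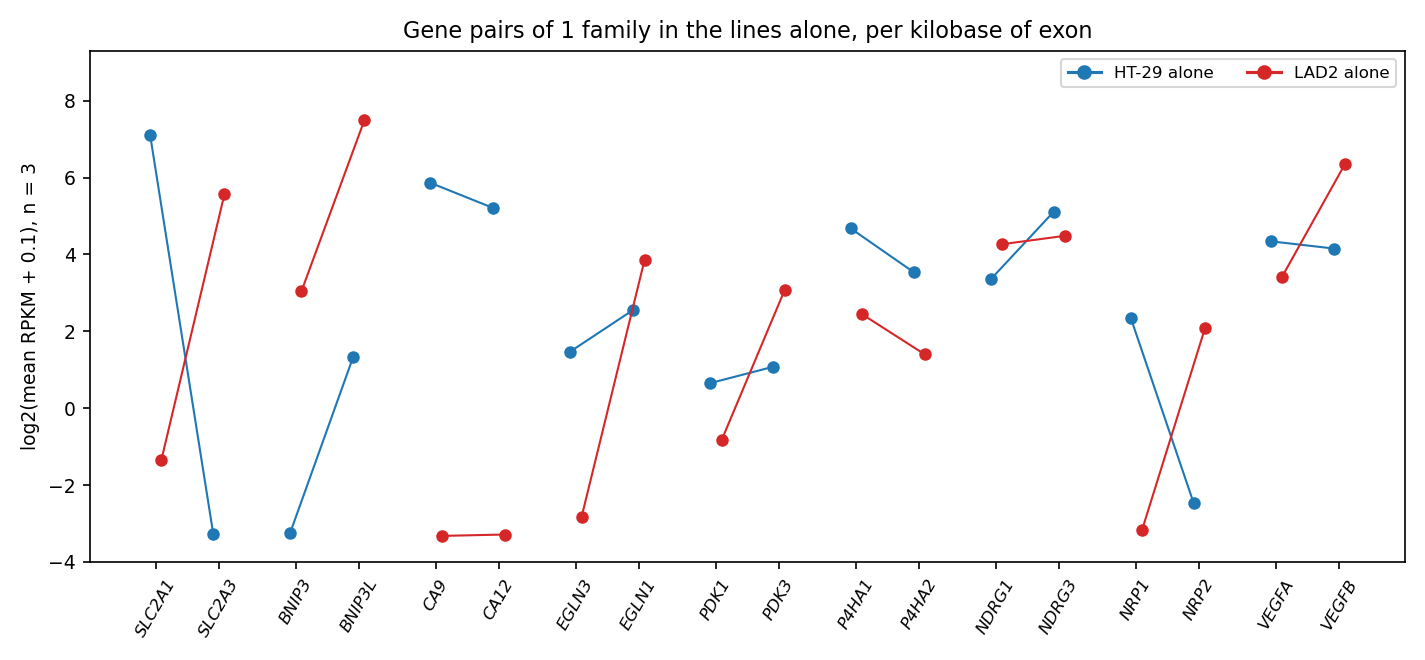
Mean RPKM of pairs of related genes on a log2 scale after adding 0.1 (y axis; n = 3 libraries) in HT-29 alone and LAD2 alone; each line joins the pair in 1 cell line. The SLC2A1 and SLC2A3 lines cross, from 137 and 0.00435 RPKM in HT-29 to 0.293 and 47.2 RPKM in LAD2, while CA9 and CA12 are both near 0 in LAD2.

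The core motif that HIF binds was searched as ACGTG and GCGTG on both strands (CACGT and CACGC on the other strand), in promoter windows from 250 bases before to 50 bases after the annotated start. The search covered RefSeq promoter sequences (GRCh38.p14) of 7 of the 9 genes, with 8 windows, because PDK1 had a pair of starts. VEGFA and NDRG1 were not searched, so whether their promoters hold either motif was not tested. The counts of members below hold for the 7 searched genes only. ACGTG was present in promoters of 4 of the 7 genes (CA9, PDK1, BNIP3 and P4HA1) and in 21.4% of 35116 promoters of the genome. Either motif was present in 6 of the 7 genes, all but EGLN3, and in 48.4% of all promoters. Counted by window, as the promoters of the genome were, ACGTG was in 4 of the 8 windows and either motif in 6. The promoters of the 3 genes with the widest gap between the lines are printed 5′ to 3′ on the strand of the gene, with every motif match in capitals, namely SLC2A1 (chr1:42958819-42959118, minus strand), CA9 (chr9:35673678-35673977, plus strand) and BNIP3 (chr10:131981874-131982173, minus strand).
SLC2A1: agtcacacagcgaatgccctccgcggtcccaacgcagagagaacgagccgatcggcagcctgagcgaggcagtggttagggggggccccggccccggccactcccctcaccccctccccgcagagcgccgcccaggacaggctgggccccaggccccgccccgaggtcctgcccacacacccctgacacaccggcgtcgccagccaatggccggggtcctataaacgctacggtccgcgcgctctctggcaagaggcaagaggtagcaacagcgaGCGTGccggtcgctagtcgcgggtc
CA9: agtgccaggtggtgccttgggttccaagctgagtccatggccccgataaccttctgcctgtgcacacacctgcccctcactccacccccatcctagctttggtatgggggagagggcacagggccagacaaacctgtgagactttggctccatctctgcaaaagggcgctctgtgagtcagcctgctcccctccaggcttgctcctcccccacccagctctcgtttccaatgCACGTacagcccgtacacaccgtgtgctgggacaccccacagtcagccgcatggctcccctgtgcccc
BNIP3: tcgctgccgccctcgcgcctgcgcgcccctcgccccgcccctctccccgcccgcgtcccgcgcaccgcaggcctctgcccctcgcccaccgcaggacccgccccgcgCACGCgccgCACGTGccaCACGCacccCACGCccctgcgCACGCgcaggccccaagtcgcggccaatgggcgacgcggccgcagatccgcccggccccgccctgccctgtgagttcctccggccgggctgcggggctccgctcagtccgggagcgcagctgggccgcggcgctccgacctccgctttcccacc
CA9, which had 0 counts in LAD2 alone, held a single ACGTG, on the other strand, with its first base at -18 when -1 is the base before the start. BNIP3, which had 1 count in HT-29 alone, held 2 overlapping ACGTG matches in the palindrome CACGTG and 4 matches of GCGTG. SLC2A1 held 1 GCGTG at position 26 after the start. A match describes the letters of the window and is not a measured binding site.

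In HT-29, 2 of the 9 genes, SLC2A1 and NDRG1, were slightly lower after coculture with LAD2 cells. None of the 8 genes tested was called higher with edgeR, none was higher at an unadjusted p under 0.05 and none was called higher by DESeq2. Over all 14070 genes tested, 8.76% were called, 5.83% higher and 2.94% lower. The split of these calls was 820 higher and 413 lower, and 975 higher and 265 lower when scaled by library totals alone. The median log2 change was -0.04 over the 8 genes and 0.00 over all genes tested. In bulk RNA, fewer cells that express a gene and less RNA per cell cannot be told apart.

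SLC2A1 stood at 561, 542 and 537 CPM in HT-29 alone and at 495, 497 and 507 CPM in HT-29 coculture. All 3 coculture libraries lay below all 3 libraries of HT-29 alone. The log2 fold change was -0.14 ± 0.0208 (SE; adjusted p = 1.06e-06, edgeR), a drop to 0.906 times the level alone. A mixture with LAD2 RNA gives 541 CPM, above the 500.0 CPM observed.

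NDRG1 moved from 40.7, 36.8 and 36.4 CPM alone to 30.8, 30.5 and 32.3 CPM in coculture. Its groups did not overlap, and the log2 fold change was -0.30 ± 0.0472 (SE; adjusted p = 7.27e-06, edgeR). LAD2 cells hold more NDRG1 than HT-29 cells, so the mixture level of 38.3 CPM was above the level of HT-29 alone, and the observed mean was 0.814 times that mixture. SLC2A1 and NDRG1 were called lower under all 13 alternative settings.

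CA9 stood at 98.2, 92.3 and 92.0 CPM alone and at 91.9, 91.0 and 89.1 CPM in coculture. Every coculture library was below every library alone, but by less than the test could call, at a log2 fold change of -0.06 (95% interval -0.12 to -0.00011; adjusted p = 0.245, edgeR). Groups that did not overlap were found in 23.4% of all genes tested, and in 4 of the 9 genes here, SLC2A1, NDRG1, CA9 and BNIP3.

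The secreted signals and the enzymes gave no call in HT-29. VEGFA had 76.7, 73.2 and 78.2 CPM alone and 73.7, 76.4 and 79.8 CPM in coculture, overlapping groups with a log2 fold change of 0.00 (95% interval -0.07 to 0.07). The interval of ADM was wider, from -0.07 to 0.41, at 4.33 to 5.11 CPM alone and 4.35 to 5.97 CPM in coculture. PDK1 had an interval of -0.15 to 0.09, EGLN3 of -0.08 to 0.21 and P4HA1 of -0.13 to 0.01, and their groups overlapped. Adjusted p-values of these 5 genes lay between 0.339 for P4HA1 and 0.999 for VEGFA (edgeR).

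BNIP3 was too low in HT-29 to pass the filter on low counts. It had 1 count over the 3 libraries alone and 15 counts over the 3 coculture libraries, a ratio of 14.9 with an exact 95% interval from counting of 2.29 to 627. The mixture with LAD2 RNA gives 0.275 CPM, against 0.212 CPM observed. Without the filter BNIP3 was called higher.

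In LAD2, 5 of the 9 genes were called in coculture, where 20.8% of 15821 genes tested were called, 14.1% higher and 6.75% lower. SLC2A1, CA9 and ADM were higher, and VEGFA and BNIP3 were lower. CA9, without counts in LAD2 alone, passed the filter on low counts only through the coculture library, so its call carries no weight of its own. Of the 3 higher genes, SLC2A1 and CA9 were at least 10 times higher in HT-29 alone than in LAD2 alone, and stood at the level of the mixture. The median log2 change was 0.21 over the 9 genes and 0.00 over all genes tested. The comparison set 1 library against 3, and the single coculture library was taken to have the spread seen in LAD2 alone.

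SLC2A1 stood at 1.17, 0.963 and 1.37 CPM in LAD2 alone and at 29.7 CPM in LAD2 coculture, with an exact 95% interval from counting of 27.6 to 31.9 CPM. The log2 fold change was 4.65 ± 0.151 (SE; adjusted p = 1.16e-26, edgeR). A mixture with 5.26% HT-29 RNA gives 29.8 CPM, so the observed level was 0.996 times the mixture. After subtraction of the expected HT-29 counts the log2 fold change was -0.17 (adjusted p = 0.86, edgeR).

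CA9 had 0 counts in the 3 LAD2 libraries alone and 131 counts, or 5.16 CPM, in coculture. That was at least 110-fold higher against 3 counts over the group. CA9 passed the filter on low counts only through the coculture library, so no p-value is given for it. The mixture gives 4.95 CPM, and the observed level was 1.04 times that. EGLN3, the third gene of this kind, had 0.591 CPM in coculture from 15 counts, with an exact 95% interval of 0.331 to 0.975 CPM, and a mixture level of 0.875 CPM. It was not called, at a log2 fold change of 1.51 (95% interval 0.07 to 2.94). Like CA9, EGLN3 passed the filter only through the coculture library.

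**Figure D3:**
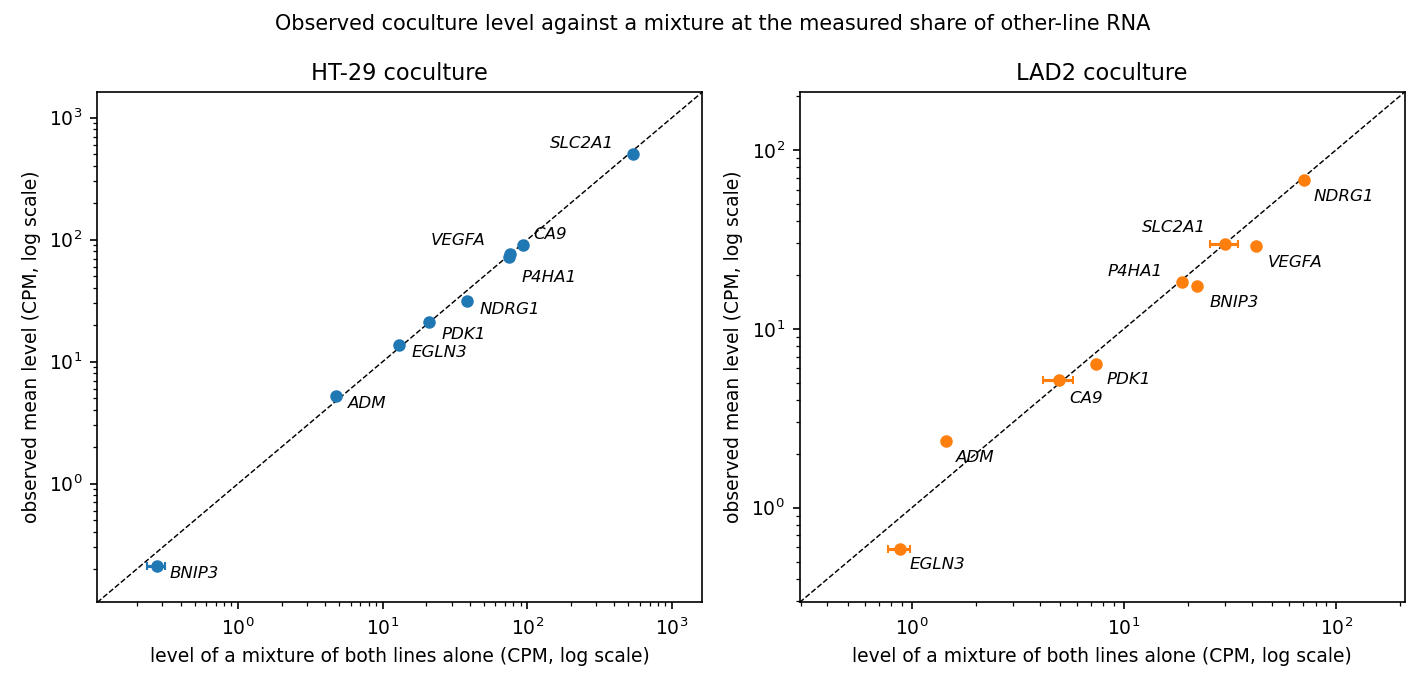
Observed mean CPM in coculture (y axis, log scale) against the CPM of a mixture of both lines alone at the measured share of partner RNA (x axis, log scale; whiskers show the mixture at the lower and upper quartile of the share over genes); the dashed line marks equal values. In LAD2 coculture SLC2A1 and CA9 lie on the line, at 0.996 and 1.04 times the mixture, while VEGFA at 0.695 and BNIP3 at 0.782 lie below it and ADM at 1.64 above it.

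VEGFA, the main angiogenic growth factor, stood at 39.7, 41.1 and 38.7 CPM in LAD2 alone and at 29.01 CPM in coculture, with an exact 95% interval from counting of 27.0 to 31.2 CPM. The coculture library was below all 3 libraries alone. The log2 fold change was -0.47 ± 0.0850 (SE; adjusted p = 3.31e-05, edgeR), and the call held in all 9 alternatives. HT-29 alone has more VEGFA than LAD2, so the mixture level was 41.7 CPM and the observed level was 0.695 times the mixture.

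BNIP3 stood at 23.1, 21.8 and 24.9 CPM in LAD2 alone and at 17.3 CPM in coculture, with an interval from counting of 15.7 to 19.0 CPM. It was again below all 3 libraries alone, at a log2 fold change of -0.44 ± 0.104 (SE; adjusted p = 0.00108, edgeR), and 0.782 times the mixture level of 22.1 CPM. The adjusted p ranged from 0.000461 to 0.0341 over the 9 alternatives.

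ADM, the vasodilator peptide adrenomedullin, stood at 1.12, 1.16 and 1.504 CPM in LAD2 alone and at 2.37 CPM in coculture, from 60 counts with an interval of 1.80 to 3.04 CPM. The log2 fold change was 0.89 ± 0.301 (SE; adjusted p = 0.0288, edgeR), and the observed level was 1.64 times the mixture level of 1.44 CPM. The log2 fold change stayed between 0.81 and 1.06 over the 9 alternatives. The call was lost with DESeq2 (adjusted p = 0.337), after subtraction of HT-29 counts (0.0807), without LAD2 alone replicate 1 (0.0944) and without LAD2 alone replicate 2 (0.0641).

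The other members gave no call in LAD2. NDRG1 went from 71.0, 72.7 and 72.1 CPM to 68.1 CPM, at a log2 fold change of -0.09 (95% interval -0.23 to 0.05; adjusted p = 0.44, edgeR). PDK1 had an interval of -0.38 to 0.26 and P4HA1 of -0.01 to 0.42. In each of the 9 genes the coculture library lay outside the range of LAD2 alone, as it did in 68.4% of all genes tested.

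**Figure D4:**
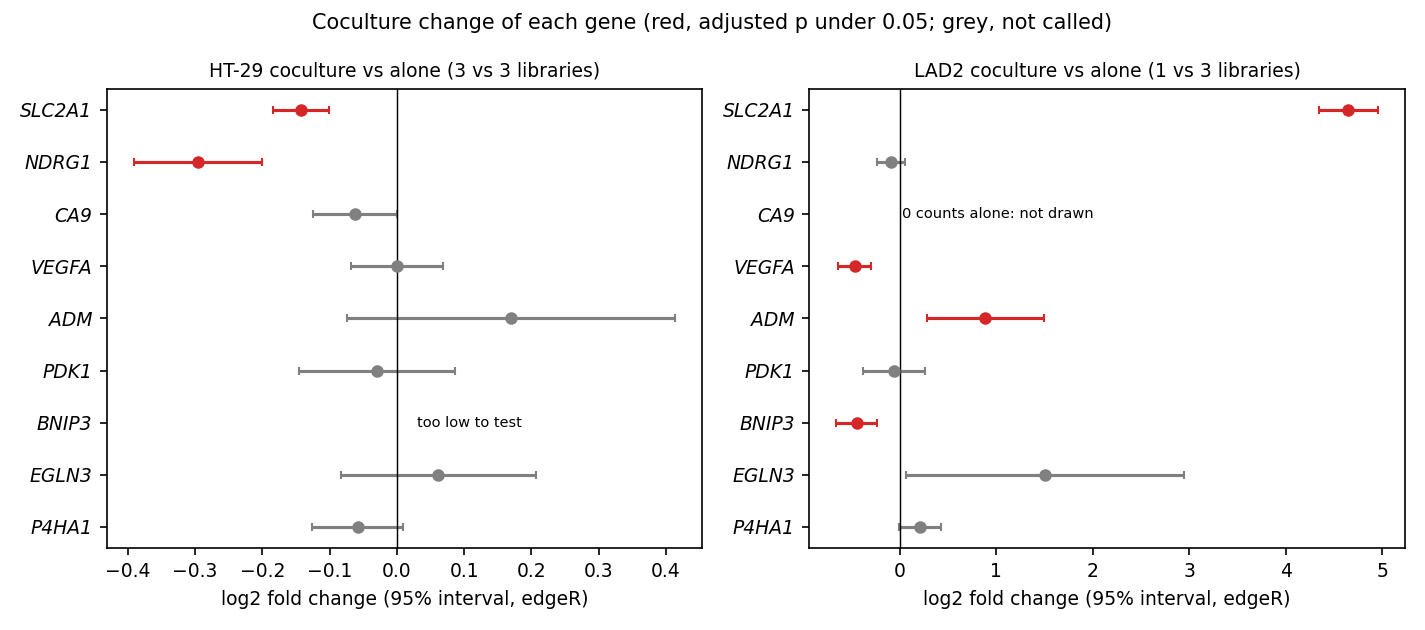
Log2 fold change of the genes in coculture against alone (x axis; points are edgeR estimates, whiskers 95% intervals; the panels have different scales), HT-29 on the left and LAD2 on the right, with called genes in red. No point is drawn for BNIP3 in HT-29, which was too low to test, or for CA9 in LAD2, which had 0 counts alone. SLC2A1 is at -0.14 and NDRG1 at -0.30 in HT-29, and VEGFA at -0.47, BNIP3 at -0.44, ADM at 0.89 and SLC2A1 at 4.65 in LAD2.

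The difference between the lines' responses was tested over all 10 libraries, as LAD2 minus HT-29 on the log2 scale. Of the 9 genes 6 were called higher and 2 lower, where 40.8% of 17435 genes were called, 33.7% higher and 7.11% lower. TMM scaling over all libraries put the median difference of all genes at 0.17, with 5877 genes called higher and 1240 lower. That split turned when 1 library was left out, to 2038 higher and 2716 lower without HT-29 alone replicate 1 (median -0.09), 2061 and 2741 without HT-29 alone replicate 3 (-0.09) and 1954 and 2962 without HT-29 coculture replicate 3 (-0.10). With RLE factors it was 3343 higher and 1763 lower (median 0.03), and with library totals 2941 and 2025 (-0.0028). With TMM scaling within each line, chosen after seeing the data, the median was -0.01 and the split 2890 higher and 2077 lower. After subtraction of partner RNA 2 of the 9 genes were called higher and 1 lower.

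VEGFA had a difference of -0.29 ± 0.0823 (SE; adjusted p = 0.00307, edgeR), which was -0.46 relative to the shifted median and -0.47 with scaling within each line (adjusted p = 4.72e-06). It was called in all 15 alternatives. NDRG1 had a difference of 0.38, or 0.20 with scaling within each line (adjusted p = 0.0462), and P4HA1 of 0.44, or 0.26 (adjusted p = 0.0376). After subtraction of partner RNA the difference of P4HA1 was 0.06 (adjusted p = 0.8, edgeR). Neither was called without HT-29 alone replicate 1, with 0.06 for NDRG1 and 0.18 for P4HA1, and both calls were likewise lost without HT-29 alone replicate 3 or HT-29 coculture replicate 3. For SLC2A1 the difference was 4.96 as counted and 0.02 after the expected partner RNA was subtracted (adjusted p = 1, edgeR). PDK1 was not called, at 0.14 ± 0.153 (SE; adjusted p = 0.499, edgeR).

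The rest of the pathway was described through 4 lists with 106 genes. Over all genes tested, 5.83% were called higher and 2.94% lower in HT-29, and 14.1% higher and 6.75% lower in LAD2. In HT-29 the machinery that makes and degrades HIF gave 0 calls among 16 tested genes with edgeR and with DESeq2. At an unadjusted p under 0.05 edgeR had 2 higher and 2 lower. HIF1A, the alpha subunit of HIF-1, stood at 103, 105 and 109 CPM alone and 104, 101 and 98.7 CPM in coculture. In LAD2, 4 machinery genes were higher and 1 was lower, with a median log2 change of 0.02.

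EPAS1, the alpha subunit of HIF-2, stood at 357, 357 and 337 CPM in LAD2 alone and at 482 CPM in coculture. It was above all 3 libraries alone, with a log2 fold change of 0.45 ± 0.0617 (SE; adjusted p = 1.43e-07, edgeR) and 1.44 times the mixture. HIF1A stood at 168, 170 and 167 CPM in LAD2 alone and at 201 CPM in coculture, a log2 fold change of 0.25 ± 0.0625 (SE; adjusted p = 0.00259, edgeR) and 1.22 times the mixture. Both calls held in all 9 alternatives. The mRNA of both alpha subunits thus rose in the library in which VEGFA and BNIP3 fell.

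The elongin subunits of the VHL ligase, ELOB and ELOC, were each higher by 0.26 in LAD2 coculture. Without LAD2 alone replicate 2 the adjusted p was 0.0534 for ELOB and 0.0985 for ELOC, and without LAD2 alone replicate 1 it was 0.0596 for ELOC. DESeq2 gave 0.0699 and 0.191. After subtraction of HT-29 counts ELOC was at 0.18 (adjusted p = 0.199, edgeR). EGLN2, a prolyl hydroxylase singled out after its value was seen, was the gene that was lower, at -0.37 (adjusted p = 0.0492, edgeR). Its call held in 2 of 9 alternatives (adjusted p = 0.000454 to 0.334) and was lost, among others, without LAD2 alone replicate 1 (0.0818) or replicate 2 (0.226) and after subtraction of HT-29 counts (0.145). ARNT, VHL, EGLN1 and HIF1AN, which modifies HIF on asparagine, were not called in either line.

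Among 39 other HIF targets, 5 of 31 tested were higher and 0 lower in HT-29 coculture, with a median log2 change of 0.04. The shares over all genes tested in HT-29 were 5.83% higher and 2.94% lower. At an unadjusted p under 0.05 edgeR had 1 lower among these targets, and DESeq2 called 0 lower. Of these 5 genes 3 were at least 10 times higher in LAD2 alone. BNIP3L rose from 9.56, 10.1 and 8.65 CPM to 17.8, 18.2 and 19.9 CPM, where the mixture gives 17.1 CPM. RRAGD, a Rag GTPase, went from 0 counts to 1.83, 1.87 and 1.47 CPM, where the mixture gives 1.78 CPM. Both stood at 0.967 to 1.09 times the mixture. RRAGD, without counts in HT-29 alone, passed the filter on low counts only through the coculture libraries.

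BHLHE40, a transcriptional repressor, was called higher in both lines. It went from 10.8, 9.14 and 11.0 CPM to 13.5, 14.3 and 13.7 CPM in HT-29, 1.13 times the mixture, and the call was lost when LAD2 RNA was subtracted (0.23; adjusted p = 0.116, edgeR). In LAD2 it went from 189, 186 and 180.4 CPM to 259 CPM, a log2 fold change of 0.48 ± 0.0617 (SE; adjusted p = 4.25e-08, edgeR) and 1.47 times the mixture, and the call held in all 9 alternatives. CA12 was higher in HT-29 coculture by 0.10 (adjusted p = 0.00192, edgeR), but not without HT-29 coculture replicate 1 (0.0947) or with both lines in 1 fit (0.0627).

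In LAD2, 6 of 33 tested HIF targets were higher and 3 lower, with a median of -0.01. The shares over all genes tested in LAD2 were 14.1% higher and 6.75% lower. Of the 6 higher genes 4 were at least 10 times higher in HT-29 alone. Among them CA12 was at 0.656 times the mixture, the chemokine receptor CXCR4 at 0.857 times and the adenylate kinase AK4 at 1.08 times. CA12, CXCR4 and AK4 passed the filter on low counts only through the coculture library.

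Of 19 glycolytic HIF targets tested in LAD2, 8 were higher and 2 lower, with a median of 0.03. Among all genes tested there, 14.1% were higher and 6.75% lower. Of the 19 genes 11 were lower in LAD2 alone than in HT-29 alone, and after subtraction of HT-29 counts 5 were higher and 1 was lower. The enolase gene ENO1 stood at 789, 756 and 789 CPM in LAD2 alone and 1017 CPM in coculture, a log2 fold change of 0.38 (SE 0.0620; adjusted p = 5.45e-06, edgeR) and 1.16 times the mixture. PGK1 (0.33) and TPI1 (0.34), enzymes of the same pathway, were at 1.15 and 1.16 times the mixture.

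ALDOC, the brain-type aldolase, went down from 98.2, 94.3 and 98.8 CPM to 68.9 CPM, at a log2 fold change of -0.50 ± 0.0715 (SE; adjusted p = 2.95e-07, edgeR). These 4 calls held in all 9 alternatives. In HT-29, 1 of 19 glycolytic genes was higher and 1 was lower, with a median of -0.01. The higher one, SLC2A3, went from 1 count to 164 counts, a ratio of 163 (95% interval 28.8 to 6473). It stood at 1.13 times the mixture and passed the filter on low counts only through the coculture libraries. The lower one, LDHA, which makes lactate, had a log2 fold change of -0.09 ± 0.0196 (SE; adjusted p = 0.00139, edgeR), and was not called with both lines in 1 fit (adjusted p = 0.133).

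Partners and relatives of the 9 genes gave 1 higher and 1 lower call among 18 tested in HT-29, with a median of 0.07, and 3 higher and 3 lower among 21 tested in LAD2, with a median of 0.04. Among all genes tested, 5.83% were higher and 2.94% lower in HT-29, and 14.1% higher and 6.75% lower in LAD2. In HT-29 the coreceptor NRP1 differed by -0.15 (adjusted p = 0.00833, edgeR). It lost its call without HT-29 alone replicate 3 (0.0615) and without HT-29 coculture replicate 1 (0.0855). NRP2 was higher by 1.02 (adjusted p = 0.00312, edgeR) at 1.24 times the mixture, and lost its call without HT-29 alone replicate 2 (0.0791). After subtraction of LAD2 counts its log2 fold change was 0.55 (adjusted p = 0.337, edgeR). DESeq2 called neither.

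In LAD2 the VEGF receptor FLT1 had 2, 6 and 8 counts alone and 34 counts in coculture, or 0.0975, 0.289, 0.354 and 1.34 CPM. FLT1 had 0 counts in HT-29 alone, so the mixture gives 0.234 CPM. The log2 fold change was 2.39 ± 0.511 (SE; adjusted p = 0.000358, edgeR), and the adjusted p with DESeq2 was 0.0595. The level of the receptor was thus higher in the 1 library in which its ligand VEGFA was lower. PDP1, a phosphatase that reverses the action of the PDK kinases, went from 22.5, 20.2 and 24.1 CPM to 15.4 CPM, at a log2 fold change of -0.54 ± 0.1096 (SE; adjusted p = 0.000159, edgeR), called in all 9 alternatives. The carbonic anhydrase gene CA2 and NRP1 were higher in LAD2 coculture by 3.54 and 3.91, at 1.72 and 0.586 times the mixture.

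**Figure D5:**
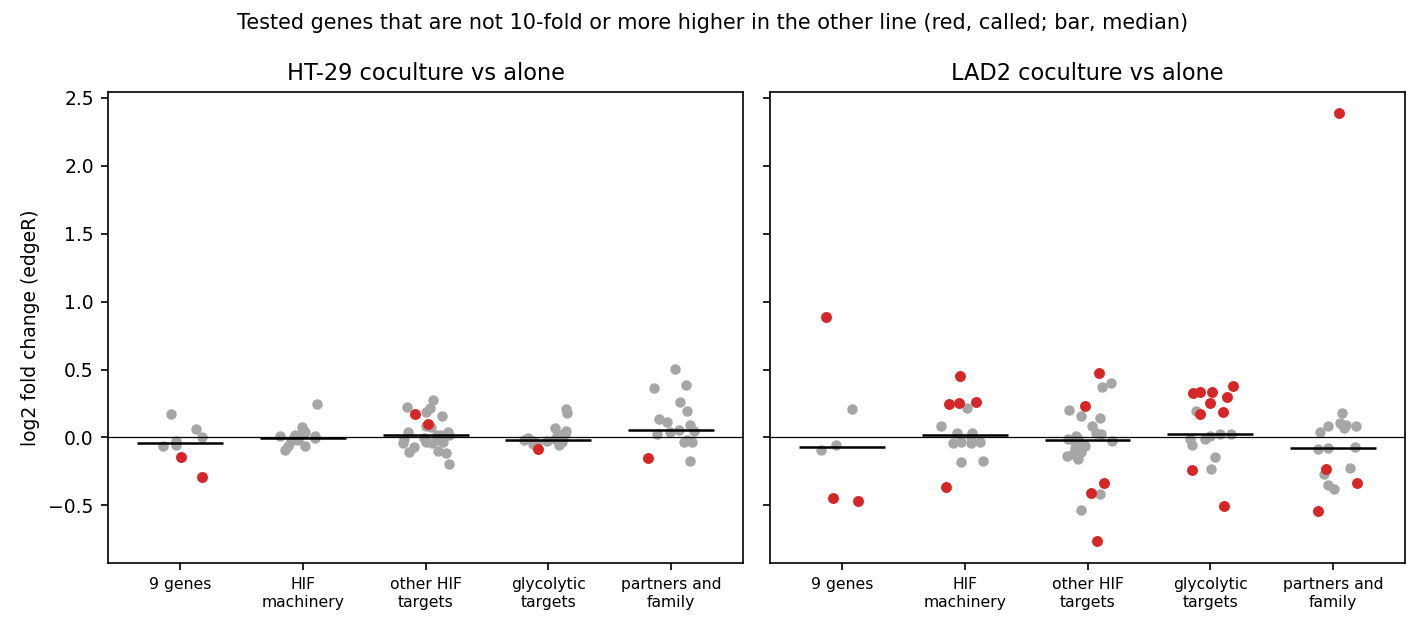
Log2 fold change in coculture (y axis, edgeR) of tested genes in the 9-gene group and the 4 lists, without genes at least 10-fold higher in the other line; points are genes, red points are called and bars are medians. In LAD2 EPAS1 is at 0.45 in the machinery, ENO1 at 0.38 and ALDOC at -0.50 among glycolytic genes and FLT1 at 2.39 among partners.

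SLC2A1 had the smallest adjusted p of the 9 genes in both coculture comparisons. Among 11166 candidate genes, the patterns most like it over the 10 libraries belonged to MYOF, SFN and PLS3, with root mean square differences of 0.0889, 0.093 and 0.0973 in centred log2(CPM + 0.5). All 3 were at 164 to 168 CPM in HT-29 alone and at 0 CPM in LAD2 alone, and at 7.84 to 9.34 CPM in LAD2 coculture. Their levels in the lines alone met the rule for the 326 HT-29 genes from which the 5.26% share of HT-29 RNA was measured. Mixture levels were not computed for these 3 genes, so how much of the level of each in LAD2 coculture is HT-29 RNA was not tested. Of these 3 genes MYOF was also called lower in HT-29 coculture, at -0.16 (adjusted p = 2.77e-06, edgeR).

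Reads shared with overlapping genes were small beside these values. Genes that overlap SLC2A1 summed to at most 1.70 CPM, the antisense gene at PDK1 reached 0.45 CPM and the one at VEGFA 0.125 CPM. Whether counting used the strand is not given in the sources used here, so reads of a gene and its antisense partner cannot be told apart.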

How the data were processed

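The authors deposited raw counts per gene, without normalization, for 12 labelled samples. FastQC 0.11.9, STAR 2.7.10a, DESeq2 3.24.0 and genome build hg38 are named, per the submitters' processing notes. Neither the counting program nor its annotation is given in the sources used here. In 12826 identifiers a digit of the version had run into the identifier, so the first 15 characters were matched to GENCODE 29, in which all 58721 were found, 58207 with a current symbol.

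Each line was fitted alone with edgeR 4.0.16 (TMM, filterByExpr, quasi-likelihood F test, two-sided) in R 4.3.3, with DESeq2 1.42.0 as an alternative. The installed limma was 3.58.1, and no fit of its own was made with it. SE of edgeR fold changes was the absolute log2 fold change divided by the square root of F, and intervals of fold changes follow from it. The 3 identical LAD2 coculture columns were counted as 1 library. BNIP3 did not pass the filter in HT-29. CPM uses library totals, whereas fold changes use TMM. Scripts were tested on simulated data. The partner RNA share was the median, over genes with at least 50 CPM in the partner alone and no more than 0.5 CPM in the host line, of the gain in CPM divided by the partner's CPM, with the 9 genes left out. Depth was 17.2 M to 34.1 M counts (M, 1e6) a library.

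The genes and lists were chosen with earlier results of these data known. Named beyond the 9 genes were up to 4 called genes per list and line with the smallest adjusted p, 6 HIF regulators, and 3 nearest patterns among genes at 5 CPM or more in a group. Alternatives were RLE size factors, library totals, no filter, each library left out, both lines in 1 fit, a replicate block and subtraction of partner RNA.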

Additional observations from a re-analysis of the deposited data

Results flagged for a closer look

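For 8 of the 9 genes the coculture response differed between the lines in the test of the difference itself (LAD2 minus HT-29, log2, edgeR, adjusted over all genes tested), where 40.8% of 17435 genes were called, 33.7% higher and 7.11% lower. The differences were 4.96 for SLC2A1, 10.11 for CA9, 1.62 for EGLN3, 0.90 for ADM, 0.44 for P4HA1, 0.38 for NDRG1, -0.29 for VEGFA and -3.72 for BNIP3. The lines share no samples in this test, but TMM scaling over all libraries put the median of all genes at 0.17. Without HT-29 alone replicate 1, HT-29 alone replicate 3 or HT-29 coculture replicate 3 that median was -0.09, -0.09 and -0.10. The value for CA9 is a fitted one against a group at 0 counts and is no bound.

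With scaling within each line, an alternative chosen after seeing the data, ADM (0.72, adjusted p = 0.0654) and EGLN3 (1.44, adjusted p = 0.0596) were no longer called. SLC2A1, CA9, EGLN3 and BNIP3 were each at least 10 times higher in 1 line than in the other. After subtraction of partner RNA 2 of the 9 genes were called higher, CA9 and NDRG1, and 1 lower, VEGFA at -0.53. SLC2A1 then had a difference of 0.02 and P4HA1 of 0.06. EGLN3 was at -5.33 and BNIP3 at 1.56, values that rest on counts at the floor, because subtraction did not let counts go negative. The call of CA9 rests on what was left above the mixture. Its 5.16 CPM in LAD2 coculture lay within the mixture range of 4.17 to 5.75 CPM given by the quartiles of the share.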

How the results depend on the processing

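HT-29 genes called numbered 1233, but 733 with DESeq2 and 432 after subtraction of partner RNA. Members called higher in HT-29 numbered 0, but 1 (BNIP3) without a filter or with both lines in 1 fit. LAD2 genes called numbered 3298, but 1954 with DESeq2, 7444 with both lines in 1 fit and 1582 after subtraction. The members higher there went from 3 to 5 with both lines in 1 fit and to 0 after subtraction (1 at an unadjusted p under 0.05). Only 7 of the 9 members were tested after subtraction, because CA9 and EGLN3 no longer passed the filter. Whether CA9 would have kept its call was thus not tested. For the difference, genes called went from 7117 to 4248 with DESeq2, 3853 without a filter and 2609 after subtraction. Members higher in the difference went from 6 to 2 without a filter, 2 after subtraction and 2 to 6 when a library was left out, and members lower went from 2 to 1 after subtraction. Among genes called in either of the 2 fits compared, the sign reversed for SLC2A1 in LAD2 after subtraction (-0.17). The differences of BNIP3 (1.56) and EGLN3 (-5.33) also took the other sign after subtraction, and neither was then called. Subtraction did not let counts go negative. Both genes were below the mixture, BNIP3 in HT-29 coculture (0.212 against 0.275 CPM) and EGLN3 in LAD2 coculture (0.591 against 0.875 CPM). Those 2 values therefore rest on counts at the floor and are no measured reversal. Signs also reversed for RRAGD (0.16) and HIF1AN (0.13) in LAD2 with both lines in 1 fit. Uncalled changes of NDRG1 (to 0.08), P4HA1 (to -0.05) and PDK1 (to 0.11) in LAD2 also took the other sign in some alternatives. That fit with both lines moved the median of all genes in LAD2 to 0.18. The cause of the other shifts was not tested. The lone LAD2 coculture library could not be left out.

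HT-29 alone was compared with HT-29 coculture and with LAD2 alone by replicate number. Deviations of same-numbered libraries from their group means had correlations of -0.021 to 0.0136. The coculture libraries of the lines were not compared in this way, so whether same-numbered samples were handled together stays unknown. With the replicate number as a block HT-29 had 1398 genes called, with the same 2 members lower, and the lines alone had 14554.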

Other observations

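Further calls in LAD2 coculture fell outside the rule for named genes and were chosen after their values were seen, so they are given as values. PDP2, a phosphatase of pyruvate dehydrogenase like PDP1, had a log2 fold change of -0.34 (adjusted p = 0.000889, edgeR), and PDHB, a subunit of that enzyme, of -0.23 (adjusted p = 0.0202), lost with DESeq2 (0.115), with both lines in 1 fit (0.466) and after subtraction of HT-29 counts (0.094). The adenosine receptor gene ADORA2B went from 61.7, 60.5 and 63.4 CPM alone to 46.9 CPM in coculture, at a log2 fold change of -0.41 (adjusted p = 4.53e-05, edgeR) and 0.795 times the mixture. WSB1, a HIF-induced ubiquitin ligase subunit, had a log2 fold change of -0.34 (adjusted p = 0.000334, edgeR) and stood at 0.827 times the mixture.

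Within groups, HT-29 alone replicate 1 held the highest CPM in 6 of the 9 genes, and HT-29 coculture replicate 3 held the highest in 6 of the 9.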
